A study of Mus musculus with 2 samples.

Results

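Mir185 is a single microRNA (miRNA) gene in an intron of Tango2, next to Dgcr8 on mouse chromosome 16. It was chosen by name from the 2202 miRNA genes counted in each library, as the row whose Ensembl identifier carries that symbol in the GENCODE M21 annotation, and its sense-strand reads were set against the 406 genes detected in both libraries. It was also picked because its level differed widely between those libraries, so that difference is described here without a test. Detected means at least 10 sense-strand reads in each library.

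The study sequenced RNA under 30 nucleotides in length from left cerebral cortex. All samples came from B6CASTF1/J animals, the F1 hybrid of C57BL/6J and CAST/EiJ, and were untreated as far as the labels state. The single group held 2 male mice aged 2 months with 1 library each, named male 3 (library 1) and male 4 (library 2). One donor identifier covers both samples, so only the numbering of animals and replicates says that the mice were separate. The libraries held 11372894 and 12980686 reads, of which 3827158 and 4553291 lay on the sense strand of a miRNA gene. Levels below are reads per 1000000 of those sense-strand miRNA reads (CPM), per hairpin gene and not per mature arm. Intervals are exact 95% intervals that cover counting error only and not the spread between animals. Reads counted with no molecular identifier need not be separate molecules, so the intervals may be too narrow even for that. In such bulk tissue, fewer cells of a type and less RNA per cell cannot be told apart.

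A miRNA is cut from a hairpin in a longer transcript, first in the nucleus by the Microprocessor, made of Drosha and its RNA-binding partner Dgcr8, and then in the cytoplasm by Dicer. One arm of the resulting duplex guides Argonaute to messenger RNAs, mainly by pairing through its seed. Mir185 and Dgcr8 lie in the mouse counterpart of the human segment lost in DiGeorge syndrome, a deletion that raises the risk of schizophrenia. In mouse models of that deletion miR-185 falls in the brain, and its targets there include the messenger RNA of the calcium pump Serca2.

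The hairpin of Mir185 yields miR-185-5p and miR-185-3p. It is shown because the deposited counts are for the whole hairpin, with the 3p arm in capitals (bases 41 to 61 of 65; RefSeq, GRCm38.p6, minus strand). The 3p arm follows with its seed, bases 2 to 8, in capitals, beside the single other mature entry of 1738 in the same table that shares this seed. The hairpin of Mir1306, the nearest detected miRNA gene, is given with its 3p arm in capitals for comparison.
Mir185 hairpin: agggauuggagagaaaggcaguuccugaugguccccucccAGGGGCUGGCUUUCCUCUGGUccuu
miR-185-3p: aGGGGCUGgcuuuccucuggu
miR-7048-5p: cGGGGCUGagaggugaggaagc
Mir1306 hairpin: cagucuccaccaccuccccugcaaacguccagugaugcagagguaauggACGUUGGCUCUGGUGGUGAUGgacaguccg

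Mir185 (ENSMUSG00000065464.2) spans chr16:18327401-18327465 on the minus strand (mm10, GENCODE M21). Tango2, named for a role in transport and Golgi organisation, runs on the same strand from 18300825 to 18348103. Of its 19 annotated transcripts, 10 carry Mir185 in an intron, and no exon of Tango2 overlaps the hairpin. The nearest exons lie 2949 bases downstream and 3888 bases upstream. Dgcr8 lies 11578 bases beyond the downstream end of Tango2.

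The hairpin folded into 26 base pairs with a terminal loop of 6 bases, at a predicted energy of -37.2 kcal/mol. Per 100 bases this was -57.2 kcal/mol, against a median of -43.4 kcal/mol over the 406 detected hairpins, and 29 of them, Mir185 included, had an energy at or below this. Its GC content was 58.5%, against a median of 52.3%. The longest stretch that it shares with any of the other 2201 annotated miRNA hairpins, on either strand, is 15 bases. A stretch of 18 bases occurs in transcripts of 1 other gene, Trim44, and no other annotated transcript holds the whole 3p arm. In the layout of these files a read that maps to several places is given to no gene, and such reads made up 41.7% of library 1 and 41.1% of library 2. Introns and intergenic sequence were not searched.

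Mir185 had 755 reads in library 1 and 7751 in library 2, which is 197 CPM (183 to 212) and 1702 CPM (1665 to 1741). The intervals lie far apart, and most reads of this gene came from library 2. Its share of the sense-strand miRNA reads was 0.0197% in library 1 and 0.170% in library 2. The mean was 950 ± 1064 CPM (SD, n = 2), so the SD exceeded the mean, with a coefficient of variation of 112%. The level was 8.63-fold higher in library 2 (8.01 to 9.31), a log2 ratio of library 1 over library 2 of -3.11 (-3.219 to -3.001). The libraries' totals of sense-strand miRNA reads differed by only 1.19-fold. No read was counted on the other strand in either library, and the column that ignores strand held the same 755 and 7751 reads.

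By mean level Mir185 ranked 98 of the 406 detected genes. It ranked 169 in library 1 and 68 in library 2, a move of 101 places, where the median move over the detected genes was 12 places. Counted with it, 3 genes moved at least this far. Mir26a-2 stood 199 places higher in library 1, and Mir451a 147 places higher in library 2. Between its level in library 1 and that in library 2 lay the means of 97 other detected genes. The mean ± SD of Mir185 overlapped that of 349 of the 405 other detected genes. Its SD exceeds its mean, so this band takes in every gene of lower level by construction, and the count orders none of them. By its ranks of 169 and 68, its place in the order of levels is poorly fixed by these libraries.

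Within 1 library the order was sharper. In library 1 it stood between Mir377 (198 CPM) and Mir30c-1 (195 CPM), and the counting intervals of 11 detected genes, from 173 to 225 CPM, overlapped its own. In library 2 it stood between Mir31 (1794 CPM) and Mirlet7c-2 (1625 CPM), and the interval of no other detected gene overlapped its own.

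The genes next to it in mean level were close between the libraries. Directly above were Mir540 (1040 CPM in library 1 and 895 CPM in library 2), Mir667 (1066 and 870 CPM) and Mir323 (1046 and 899 CPM), which belong to the imprinted miRNA cluster of chromosome 12. Directly below were Mir497 (914 and 969 CPM), a member of the miR-15/16 seed family, Mir130a (859 and 1012 CPM) and Mir431 (906 and 920 CPM). All 6 lay between 859 and 1066 CPM in both libraries, whereas Mir185 lay below that range in library 1 and above it in library 2. Their means fell within 1 SD of the mean of Mir185, and the order reversed between the libraries, so none of the 6 can be ordered against it.

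**Figure D1:**
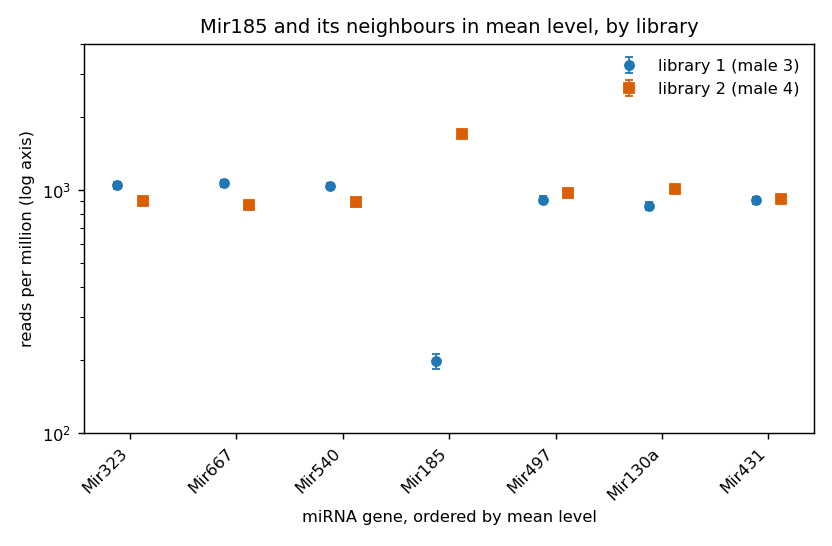
Levels of Mir185 and of the 3 detected miRNA genes directly above and below it in mean level, in CPM on a log axis, by library. Points are single libraries and bars are exact 95% Poisson intervals, smaller than the symbol for most points. The 6 neighbours lie between 859 and 1066 CPM in both libraries, and Mir185 lies at 197 and 1702 CPM.

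Set against all detected genes, 2 genes, Mir185 included, had a ratio at least this far toward library 2, and 3 had a ratio this wide in either direction. Of the 406 detected genes, 10.1% were at least 2-fold apart, with 3.20% higher in library 2 and 6.90% higher in library 1. The other genes of the 3 were Mir26a-2, with 1722 and 42 reads (log2 ratio 5.61), and Mir451a, with 223 and 6459 reads (log2 ratio -4.61). Next came Mir21a, a miRNA linked to injury and glial activation, at 2.15, and Mir3068 at 2.11. Among the 199 detected genes with a mean of at least 100 CPM, the median distance between the libraries was 1.23-fold, and 17 genes were 2-fold or more apart.

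The pattern over 2 libraries is a single ratio, and by it the genes of at least 100 CPM most like Mir185 were Mir99b (log2 ratio -1.64), Mir451a (-4.61), Mir153 (-1.14), Mirlet7a-2 (-0.97) and Mir16-1 (-0.93). All 5 were higher in library 2, but they were chosen by nearness to the ratio of Mir185, so the shared direction is no separate result. Even the nearest, Mir99b, differed from Mir185 by more than 1 log2 unit, so no gene of that level had a closely matching ratio. Mirlet7a-2 and Mir16-1 have further copies with the same mature sequence, and their counts may miss reads that map to several places. The count of Mir26a-2, by its numbered name also a copy, may miss such reads too.

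**Figure D2:**
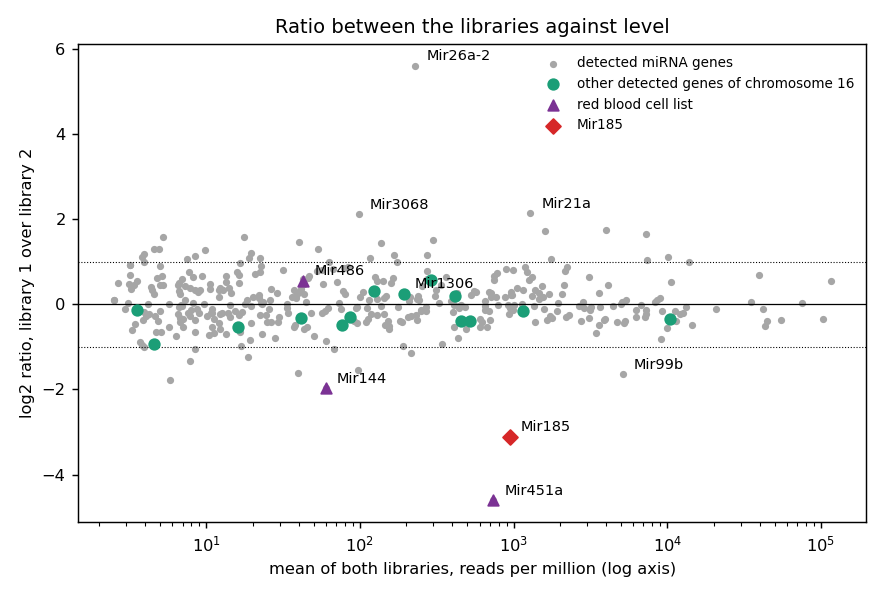
Log2 ratio of library 1 over library 2 against the mean CPM (log axis) for the 406 detected miRNA genes. Dotted lines mark a 2-fold difference. Mir185 lies at -3.11. Of the red blood cell list, Mir451a lies at -4.61, Mir144 at -1.97 and Mir486 at 0.55. The 14 other detected genes of chromosome 16 lie between -0.92 and 0.57.

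Of the other miRNA genes of the locus, 1 had enough reads for a ratio, and it did not share that of Mir185. Within 1 Mb of it, 5 further miRNA genes are annotated, of which Mir1306 alone was detected. Mir1306 (ENSMUSG00000080452.3, chr16:18284239-18284317, minus strand) lies inside exons of Dgcr8, 43083 bases from Mir185. It had 801 reads in each library, or 209 CPM (195 to 224) in library 1 and 176 CPM (164 to 189) in library 2. This is a log2 ratio of 0.25 (0.11 to 0.39), slightly higher in library 1 (exact binomial test on counting error, Benjamini-Hochberg adjusted p = 0.00135), in a test that called 48.4% of 508 genes, 25.2% toward library 1 and 23.2% toward library 2. In library 1 the intervals of Mir185 and Mir1306 overlapped. In library 2 they were far apart, with Mir185 at 1702 CPM and Mir1306 at 176 CPM.

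Gm24572, listed by RefSeq as Mir3618, overlaps exons of Dgcr8 and had 1 read in each library. Hairpins in the Dgcr8 messenger RNA are known to be cut by the Microprocessor itself. Mir6366 had 3 and 2 reads. Gm26219 and Gm23612 had none, which allows up to 0.784 CPM in library 1 and 0.659 CPM in library 2 (3 reads of the total). With so few reads no ratio could be read for these 4 genes. The host messenger RNAs Tango2 and Dgcr8 were not measured in these short-RNA libraries.

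**Figure D3:**
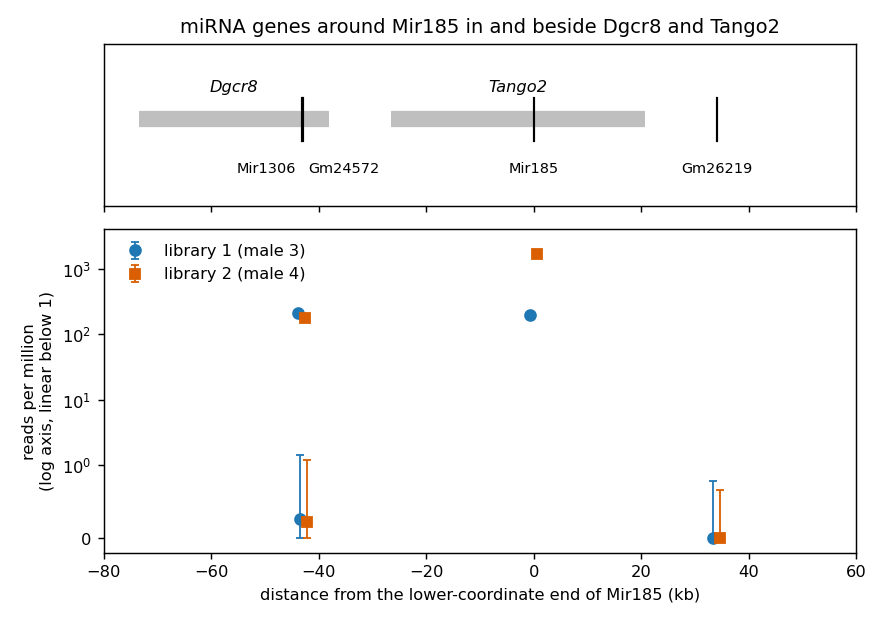
Top, the Dgcr8 and Tango2 genes (grey bars) and the miRNA genes (ticks) by distance from Mir185 in kb. Bottom, their CPM in each library with exact 95% Poisson intervals (for genes at 0, up to 3 reads of the total), on an axis that is logarithmic above 1 and linear below. Mir185 is split between the libraries (197 and 1702 CPM), and Mir1306 is close in both (209 and 176 CPM).

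Over the whole of chromosome 16, 15 of 76 annotated miRNA genes were detected. The 14 other than Mir185 had log2 ratios from -0.92 to 0.57 with a median of -0.31, against a median of -0.000547 over all detected genes, and none was 2-fold apart. By the exact binomial test 6 of the 14 were higher in library 2, 4 were higher in library 1 and 4 did not pass. The same test called 23.2% of all 508 genes tested toward library 2 and 25.2% toward library 1. Over all detected genes, 10.1% were at least 2-fold apart. The highest were Mir99a, at 9147 and 11558 CPM, and Mir484, at 1095 and 1211 CPM. Together the 14 summed to 12416 CPM in library 1 and 15040 CPM in library 2. Mir185 was thus the only detected miRNA gene of this chromosome that differed by 2-fold or more.

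Mir7048, whose 5p arm shares the seed of miR-185-3p, had 1 read in library 1 and none in library 2. Entries in that table match 1018 of the 2202 miRNA genes by symbol, and the seeds of the rest were not compared.

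Mir25 and Mir338 have been studied with miR-185 in mouse models of the deletion. Mir25, which like miR-185 targets Serca2, had 165 and 162 reads, or 43.1 and 35.6 CPM (log2 ratio 0.28, -0.04 to 0.60; exact binomial test, adjusted p = 0.149). Mir338, also an oligodendrocyte miRNA, stood at 2737 and 1585 CPM and was higher in library 1 (log2 ratio 0.79, exact binomial test, adjusted p = 4.61e-284). Thus 1 of these 2 genes was called, beside 48.4% of all genes tested.

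Of the 3 detected red blood cell marker miRNAs, 2 were higher in library 2, as Mir185 was, and 1 was higher in library 1. The exact binomial test called 23.2% of all 508 genes tested toward library 2 and 25.2% toward library 1. Of 5 listed red blood cell miRNAs, 4 are annotated in these files and 3 were detected. The list summed to 134 CPM in library 1 and 1549 CPM in library 2, a difference of 1415 CPM beside 1505 CPM for Mir185. Mir451a alone made up most of the difference of the list. Mir451a and Mir144, which share a transcript and are strong in red cells, were higher in library 2, with 58.3 and 1419 CPM for Mir451a and 24.6 and 96.0 CPM for Mir144. Mir486, also a red cell miRNA, went the other way with 51.0 and 34.7 CPM (exact binomial test, adjusted p = 0.000871), and Mir451b was at 0 in both libraries. For Mir486 the other strand held 27 and 13 reads, and the column that ignores strand held 0 in both libraries. How complete the count of Mir486 is was not tested. The part of these red blood cell miRNAs in the difference at Mir185 was not tested.

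The red blood cell list had a log2 ratio of sums of -3.53, set mainly by Mir451a. By the same ratio the other marker lists were closer between the libraries, from -0.54 for platelets to 0.56 for neurons. The vascular list, led by the endothelial Mir126a (8100 and 11825 CPM), summed to 14355 and 18574 CPM, and by the test 2 of its 3 genes were higher in library 2, with Mir145a higher in library 1. The platelet list holds Mir126a and Mir223, which had 61 and 8 reads, far apart and higher in library 1. The neuron list, led by the activity-regulated Mir132 (48515 and 30152 CPM), summed to 78411 and 53206 CPM. By the test 5 of its 11 tested genes were higher in library 1 and 2 in library 2. Over all tested genes the shares called were 25.2% toward library 1 and 23.2% toward library 2.

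The glial lists were also higher in library 1, opposite to Mir185. The astrocyte list (Mir29a at 12547 and 8703 CPM) had 3 of 4 genes called higher in library 1 and the oligodendrocyte list (Mir338) 2 of 3. The test called none toward library 2 in either. Of all 508 genes tested, 25.2% were called higher in library 1 and 23.2% higher in library 2. The microglia and leukocyte list (Mir150 at 1291 and 1020 CPM) had 3 of 6 tested genes called higher in library 1 and none called higher in library 2. The choroid plexus list (Mir204 at 430 and 457 CPM) summed to 718 and 722 CPM, and none of its 4 genes passed. Median log2 ratios of these lists ran from -0.55 for the 1 detected platelet gene to 0.59 for astrocytes, and the red blood cell list stood at -1.97.

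**Figure D4:**
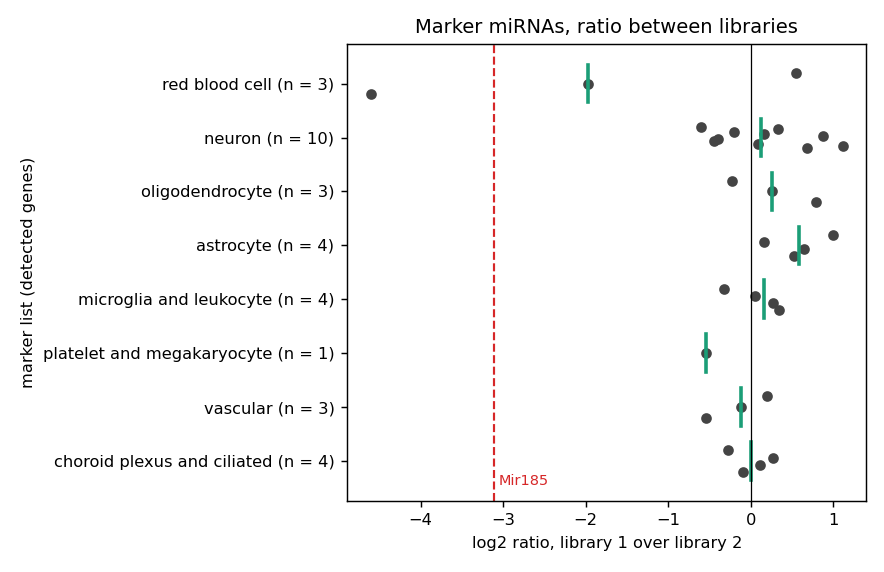
Log2 ratio of library 1 over library 2 for the detected genes of each marker list (points), with the list median (green bar) and Mir185 (dashed line at -3.11). Of the red blood cell list, Mir451a (-4.61) lies beyond Mir185, while Mir144 (-1.97) and Mir486 (0.55) do not. All points of the other lists lie between -0.60 and 1.12.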

How the data were processed

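The authors deposited 1 table of whole-number read counts per miRNA gene for each library, not normalized, made on mm10 with GENCODE M21 per the labels. For the aligner, its version and adapter trimming, nothing is given in the sources used here. The first 4 rows tally reads given to no gene and were left out of totals and tests: unmapped reads (19.6% and 18.9%), reads that mapped to several places (41.7% and 41.1%), reads outside miRNA genes (5.03% and 4.94%) and ambiguous reads (0 and 1). Reads from the CAST/EiJ allele that differ from mm10 may have been lost.

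The sense-strand column was the stranded column with the larger total. Counts were scaled to 1000000 reads in that column over all miRNA genes (CPM), and ratios used no pseudocount. With 1 group of 2 libraries no test between conditions exists. Genes with 10 or more reads in total were compared across the pair of libraries by an exact binomial test (two-sided), with Benjamini-Hochberg adjustment over 508 genes at 0.05. This test covers counting error only and was read for genes other than Mir185. It was tried on simulated Poisson counts, which hold counting error alone, so that trial does not bear on the spread between animals. Hairpins were folded with RNAfold 2.7.2. Alternatives used edgeR 4.0.16 (TMM) and DESeq2 1.42.0 (size factors) in R 4.3.3, beside Python 3.11.15 with scipy 1.17.1. All gene identifiers matched M21, and sequences are from RefSeq (GRCm38.p6).

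The gene, the lists and the tests were chosen with earlier results of these data known. Genes named are Mir185, its neighbours in level (3 above and below in the mean, 1 in each library), the 5 nearest in ratio with a mean of at least 100 CPM, those with a ratio as wide and the next 2, miRNA genes within 1 Mb, the highest of chromosome 16, genes sharing a seed, the red blood cell and deletion model lists, and the highest gene of each other list. Mir223 and Mir145a were named outside this rule, after their values were seen. A search of the genome for each arm was planned, but no genome sequence was used here. In its place, annotated transcripts were searched for the 3p arm and for stretches of 18 bases of the hairpin.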

Additional observations from a re-analysis of the deposited data

Results flagged for a closer look

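A share of the reads was counted at no gene. In library 1, 41.7% of all reads mapped to several places, and in library 2 41.1% did, and the files do not say from which genes they came. With 1 group of 2 libraries, no outlier among replicates and no difference between groups was sought.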

How the results depend on the processing

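The log2 ratio of Mir185 was -3.11 and stayed within its counting interval under TMM factors, DESeq2 size factors, all reads as the denominator, the total without the 10 highest genes, the column that ignores strand and 1 or 10 CPM added. The mean level was 950 CPM and became 2241 CPM when the 10 highest genes were left out of the denominator, and 332 CPM with all reads as the denominator. It ranged from 197 to 1702 CPM when either library was left out, and the number of genes at or above Mir185 from 68 to 169. The lower level is that without library 2, and the higher that without library 1. The number of genes with a ratio at least as wide as that of Mir185 was 3, and 7 with a minimum of 1 read. At minimums of 1, 50 and 100 reads, 70, 18 and 14 genes were at least 2-fold higher in library 1, and 54, 8 and 6 in library 2, against 28 and 13. The binomial counts stayed within 1.5 times their values under other minimums and scalings. Of the 32 other genes named and tested, none reversed under TMM or DESeq2 scaling, and Mir204 alone gained a call (log2 ratio -0.11 and -0.13). A ratio between libraries has no value with 1 library left out. No paired analysis was possible because the series has 1 group. Depth limits the genes near Mir185 with under 10 reads.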
